A study of Mus musculus with 2 samples.

Results

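Cytoplasmic ribosomal protein genes were examined across the immune cell types of the mouse dorsal root ganglion (DRG). Members were taken by name: symbols that begin with Rpl or Rps and a digit, together with Rpsa, Rplp0, Rplp1 and Rplp2. The 10 S6 kinase genes (Rps6k names), 8 pseudogene names and 4 names ending in l were left out of the 103 symbols that matched, which left 81 members of 16819 symbols. Of these, 43 encode proteins of the large subunit, 31 proteins of the small subunit and 3 the P stalk. The remaining 4 (Rpl22l1, Rpl7l1, Rps19bp1 and Rps27rt) are paralogs or partners rather than core proteins and held 0.365% of member UMIs (unique molecular identifiers, each standing for 1 captured message). The rule used names only and no measured value entered it, though it was set with earlier results of these data known.

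The data came from CD45+ (leukocyte) cells of naive wild-type BALB/cAnNRj mice, aged at least 7 wk, with no disease model or treatment. DRGs from cervical, thoracic and lumbar levels, about 40 per animal, were pooled for each mouse and digested with enzymes at 37°C before sorting. Cells of 3 male and 3 female mice carried 6 hashtag antibodies and were run in a single 10x lane of 3′ libraries, so the mouse was the replicate. Of 4395 cell barcodes, 2668 single cells were assigned to the male mice (481, 772 and 1415 cells) and 1073 to the female mice (313–382 cells per mouse), and no barcode was shared between mice. The main comparisons used the male mice, in which more cell types could be named, and the female mice were clustered and tested apart.

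The ribosome translates messages into protein. Its small subunit decodes the message, its large subunit forms the peptide bond, and the P stalk (Rplp0 with Rplp1 and Rplp2) recruits and stimulates the elongation factors. One copy of nearly every core protein enters each ribosome, while Rplp1 and Rplp2 enter as dimers. Ribosomal protein messages are therefore held broadly in step, and many begin with a C followed by a run of pyrimidines, the 5′ TOP motif, through which mTOR and Larp1 control their translation. Neutrophils are made in the bone marrow through proliferating precursors, then a stage that makes specific granule proteins such as Ltf, and last a late stage that leaves the marrow and circulates.

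Letters like those of the TOP motif were more frequent at the promoters of the members than at those of all genes. RefSeq sequence (GRCm38.p6) was found for 61 of the 81 members. In 21 of them (34.4%) a C followed by at least 7 C or T bases began within 5 bases of an annotated start on the sense strand, against 5.17% of all 27025 genes. Counted by window, it was 29.6% of the members' 71 start windows against 4.37% of all windows. On the other strand the letters were present in 2.82% and 5.59%. The sequences below are 10 bases before and 20 bases from the annotated start on, printed 5′ to 3′, with the run in capitals. The first 4 belong to members that the results turn on or that have the longest run among those shown.
Rps9 (chr7:3704031-3704060, + strand): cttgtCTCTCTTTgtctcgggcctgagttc
Rps27 (chr3:90213629-90213658, − strand): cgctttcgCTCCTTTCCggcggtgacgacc
Rps18 (chr17:33955646-33955675, − strand): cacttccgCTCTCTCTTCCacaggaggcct
Rpl35 (chr2:39005112-39005141, − strand): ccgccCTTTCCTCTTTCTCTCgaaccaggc
The next 4 belong to members whose part of the total changed strongly and whose printed window holds no such run.
Rpl10a (chr17:28328461-28328490, + strand): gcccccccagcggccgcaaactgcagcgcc
Rpl36a (chrX:134585644-134585673, + strand): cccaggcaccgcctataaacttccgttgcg
Rpsa (chr9:120127756-120127785, + strand): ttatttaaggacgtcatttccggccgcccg
Rplp0 (chr5:115559457-115559486, + strand): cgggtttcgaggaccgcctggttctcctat
Each window spans the promoter's end and the first exon of its gene. A match describes letters at an annotated start, and the start used in these cells was not measured.

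Cell types were named from marker genes. In the male mice the clusters held 1521 macrophages, 107 monocytes, 98 dendritic cells (DCs), 133 T and NK cells, 72 mature B cells, 73 B cells of unnamed stage, 45 B cell precursors, 98 neutrophil precursors, 239 Ly6g Ltf neutrophils and 259 late neutrophils. Another 23 cells that raised 6 fibroblast and 6 Schwann or satellite cell markers stayed unnamed. The macrophage genes C1qa, C1qb and C1qc together made up 1.66% of UMIs in macrophages and 0.00574–0.0497% in the other types of the male mice. A random part of the UMIs (probability 0.5) was held out from the clustering and used for all values below unless stated. Held-out UMIs per mouse and type ranged from 30409 in a sum of B cells of unnamed stage, which entered no comparison, and 33091 in a mature B cell sum to 3992070 in a macrophage sum. The deepest sums therefore belonged to macrophages and the shallowest to B cells, and sampling error was larger for B cells, T cells and late neutrophils. A lower share can come with fewer ribosomal protein messages or with more of the other messages in a cell, and shares alone cannot tell these apart.

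The part of a cell's messages that encoded ribosomal proteins differed more than 10-fold between immune cell types. The members made up 13.97% of all UMIs of the male cells before the split. In late neutrophils the 3 male mice gave 2.43%, 2.64% and 2.41% (mean 2.49% ± 0.130, SD, n = 3). In Ly6g Ltf neutrophils they gave 2.65%, 3.00% and 2.65% (2.77% ± 0.201). Neutrophil precursors gave 9.60%, 8.44% and 10.9% (9.66% ± 1.25) and did not overlap the later stages. Macrophages gave 15.4%, 14.2% and 14.7% (14.7% ± 0.592), and monocytes 19.7%, 18.6% and 19.5% (19.3% ± 0.560). The monocyte and macrophage values did not overlap. DCs gave 22.5%, 22.7% and 23.8% (23.0% ± 0.681), mature B cells 25.6%, 20.5% and 21.7% (22.6% ± 2.69), and T and NK cells 26.0%, 24.9% and 28.4% (26.4% ± 1.82). B cell precursors, with enough cells in only 2 male mice, gave 26.6% and 26.4%. The ranges of DCs, mature B cells and T and NK cells ran into each other, so their order was not resolved, and late and Ly6g Ltf neutrophils differed by little more than their spread.

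**Figure D1:**
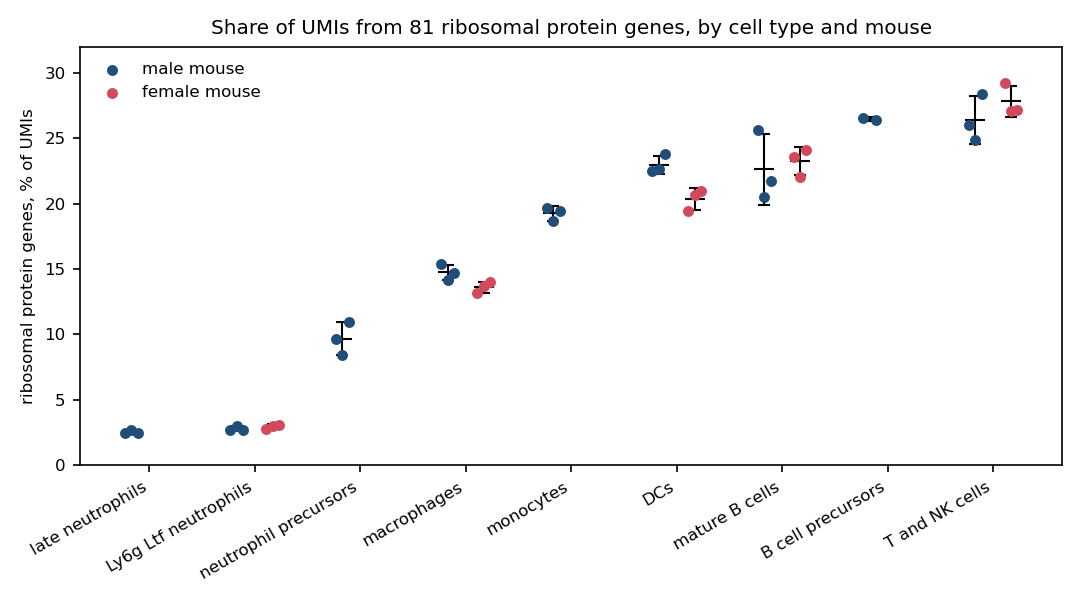
Member UMIs as a percent of all UMIs (vertical axis) for each mouse and cell type, with male and female mice marked apart and bars for mean and SD. Late and Ly6g Ltf neutrophils sit at 2.41–3.06%, macrophages at 13.1–15.4%, and DCs, B cells and T and NK cells at 19.4–29.2%.

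In the female mice, in which 5 types could be named, Ly6g Ltf neutrophils were again lowest, macrophages next and T and NK cells highest. Their macrophages held 13.1%, 13.7% and 14.0%, DCs 19.4%, 20.7% and 21.0%, mature B cells 23.6%, 22.1% and 24.1%, T and NK cells 29.2%, 27.1% and 27.2%, and Ly6g Ltf neutrophils 2.77%, 3.00% and 3.06%. Over all 6 mice the log2 ratio of member to other UMIs, set against macrophages of the same mouse, was 0.74 ± 0.08 (SD) higher in DCs, 1.17 ± 0.18 higher in T and NK cells and 0.85 ± 0.16 higher in mature B cells, in 6 of 6 mice each. In Ly6g Ltf neutrophils it fell by 2.49 ± 0.17, in 6 of 6 mice. For each of these an exact two-sided permutation test over mice gave p = 0.03125, the smallest that 6 mice allow (adjusted p = 0.0625 over the 8 comparisons). Monocytes lay 0.46 ± 0.03 above macrophages, late neutrophils lay below Ly6g Ltf neutrophils (−0.15 ± 0.03) and neutrophil precursors lay 1.90 ± 0.30 above them, each in 3 of 3 mice. With 3 mice the exact test cannot go below p = 0.25 (adjusted p = 0.286). The sign for late neutrophils depended on the summary. As the median over cells it turned (0.165 on the held-out UMIs). Before the split, the cell medians were 2.40%, 2.61% and 2.44% in late and 2.28%, 2.31% and 2.27% in Ly6g Ltf neutrophils. These medians were higher in late neutrophils in 3 of 3 mice, so the order of these stages was not resolved. B cell precursors lay 0.22 ± 0.21 above mature B cells in 2 mice (exact p = 0.5, the smallest possible), and this sign turned under other clusterings. The contrasts share their reference sums and are not independent of each other.

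Within named types the share also varied. Macrophages of the cluster led by Ccl24, Pla2g2d and Igf1 held 12.9% ± 0.276 and those of the cluster led by Cxcl14 and Slamf9 held 16.3% ± 0.131 (n = 3 each). The cDC1 cluster (Xcr1, Clec9a, Naaa) held 26.2% of pooled UMIs and the cDC2 cluster (Cd209a) 19.9%. Among neutrophil precursors, the 27 cells with Elane and Mpo, enzymes of primary granules, held 19.9%, whereas the 71 cells with Fcnb and Camp held 6.17%. The mean of 9.66% for precursors thus lies between a stage above the macrophages and a stage well below them. Both precursor clusters raised 8 of 8 proliferation markers. Late neutrophils carried a mean of 81 member UMIs per cell before the split, Ly6g Ltf neutrophils 272, macrophages 1297 and neutrophil precursors 1939. Total UMIs per cell differed too, with medians by male mouse of 2796.5–3559.5, 8974–10459, 7575–9558 and 18894–20788 in the same order. These member counts per cell therefore cannot be read apart from depth. The ratio of large to small subunit UMIs moved far less, from 0.944 in late neutrophils and 1.01 in Ly6g Ltf neutrophils to 1.10 in macrophages and 1.19 in monocytes.

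Tests of single genes asked how many members moved against the other messages. UMIs held out from the clustering were summed per mouse and type and fitted by the quasi-likelihood method of edgeR, with TMM scaling and Benjamini-Hochberg adjustment over all 4533 genes tested in the male mice. All 81 members passed the filter on low counts. Shares of all genes were counted for the main edgeR fits only. Member counts by DESeq2, on total UMIs or under other settings have no such share and cannot be set against those given. In Ly6g Ltf neutrophils 79 of the 81 members fell against macrophages and none rose, while of all genes 35.0% were lower and 27.6% higher. The members' median log2 difference was −1.77 and that of all genes −0.27. No member rose at an unadjusted p under 0.05 either, and DESeq2 called 80 lower and none higher. The 2 members not called by edgeR were Rps27a (−0.21, adjusted p = 0.265 by edgeR) and Rpl7l1 (−0.47, adjusted p = 0.168 by edgeR).

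Members were higher again in neutrophil precursors, where 74 exceeded the level of Ly6g Ltf neutrophils and none lay below it (23.2% of all genes higher, 26.0% lower, members' median 1.26). DESeq2 called 77 higher and none lower, and at an unadjusted p under 0.05 no member was lower. Without the 27 Elane Mpo cells 57 were higher and 1 lower. Late neutrophils had 58 members lower and none higher than Ly6g Ltf neutrophils (13.7% of all genes lower, 8.89% higher, members' median −0.88). That split depended on the scaling, since relative to total UMIs without TMM it was 18 lower and 4 higher. DESeq2 called 44 lower and 1 higher, and no member was higher at an unadjusted p under 0.05 by edgeR.

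Outside neutrophils, most members were higher than in macrophages in DCs. There 60 members were higher and none lower (14.0% of all genes higher, 14.8% lower, members' median 0.57). DESeq2 called 70 higher and none lower, no member was lower at an unadjusted p under 0.05, and without the cDC2 cluster the count was 71 higher. In T and NK cells 39 were higher and 1 lower (16.6% of all genes higher, 22.5% lower, median 0.37). Monocytes had 10 higher and 3 lower (14.5% of all genes higher, 15.4% lower, median 0.10) and mature B cells 7 higher and 2 lower (10.7% of all genes higher, 17.4% lower, median 0.11), counts near or under those of all genes. Relative to total UMIs, 75 members were higher in T and NK cells, 48 higher and 1 lower in monocytes and 65 higher in mature B cells, so the counts for these 3 types rested on the scaling. The share of all genes called on total UMIs was not counted. In mature B cells the members' median also turned without Scrublet doublets (4 higher and 9 lower, −0.07) and without the filter on low counts (0 higher and 2 lower, −0.13). B cell precursors had 11 members higher and 1 lower than mature B cells (8.10% of all genes higher, 10.1% lower), or 18 higher and 1 lower on total UMIs. This direction was not stable. Counts were 4 higher and 5 lower at resolution 0.3, 2 and 6 at 0.8, 2 and 5 with all 6 mice clustered together, 0 and 5 with all UMIs or without Scrublet doublets, and 0 and 4 with another random split, with the members' median below 0 in each. The precursor cluster raised 8 of 8 proliferation markers, whose part in this comparison was not tested. Without male mouse 3 the count was 21 in DCs and 18 in T and NK cells, and leaving out 1 male mouse in turn gave 2–5 in monocytes, 1–6 in mature B cells and 3–5 in B cell precursors.

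In the female mice 79 members were among 2232 genes tested. In DCs 55 were higher and 1 lower (19.1% of all genes higher, 18.6% lower), and 64 of the 86 DCs lay in a cluster that also raised 4 monocyte markers. The counts were 72 higher and 1 lower in T and NK cells (23.8% and 25.5% of all genes), 54 higher and 3 lower in mature B cells (23.6% and 26.7%), and 76 lower with none higher in Ly6g Ltf neutrophils (35.2% lower and 25.5% higher). The count in mature B cells depended on the processing, with 5 higher and 8 lower without the filter on low counts (median −0.02), 15 calls with all 6 mice clustered together and 28–40 calls when 1 female mouse was left out in turn. In Ly6g Ltf neutrophils DESeq2 also called 76 lower and none higher, and no member was higher at an unadjusted p under 0.05 by edgeR.

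Members did not move as a block. A second fit took the summed member UMIs as library size, so that its log2 differences, called departures here, say whether a gene held a larger or smaller part of the ribosomal protein messages. Member sums of late neutrophils held only 1961–6761 UMIs, so the spread between types is given without them. Over the other 8 cell types tested, the percent of member UMIs held by a member differed by a median of 1.61-fold between its highest and lowest type, and by 1.17-fold for Rpl23, 4.39-fold for Rpl36a and 5.10-fold for Rpl12. With late neutrophils the median was 1.96-fold. In Ly6g Ltf neutrophils against macrophages 18 members departed higher and 26 lower, beside 58.6% and 11.0% of all genes. In neutrophil precursors against Ly6g Ltf neutrophils 26 departed higher and 13 lower (8.60% and 51.6% of all genes), and in late against Ly6g Ltf neutrophils 7 higher and 14 lower (20.8% and 4.35%). Because the reference is the member total, genes outside the set shift as a whole when that total shifts. The adjustment ran over all genes, so where many of them were called the threshold was eased for members. In female DCs, for example, Rplp1 was called at an unadjusted p of 0.0208 (adjusted p = 0.0475 by edgeR). The share of false calls among members alone can therefore exceed the one that the threshold names. Against macrophages 12 members departed higher and 11 lower in T and NK cells (10.5% and 32.8% of all genes), 9 and 7 in monocytes (12.8% and 17.6%), 5 and 5 in mature B cells (9.40% and 19.7%) and 5 and 4 in DCs (6.22% and 40.0%). In B cell precursors against mature B cells 7 departed higher and 5 lower (6.40% and 12.0%). These counts moved with the method in DCs and mature B cells, where DESeq2 called 24 departures each, and in mature B cells 16–19 were called at resolution 0.3, with all UMIs or without Scrublet doublets. In the female mice 7 departed higher and 4 lower in DCs (10.2% and 33.9% of all genes), 16 and 13 in T and NK cells (10.4% and 47.0%), 14 and 9 in mature B cells (13.7% and 35.5%) and 12 and 22 in Ly6g Ltf neutrophils (50.9% and 13.1%).

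**Figure D2:**
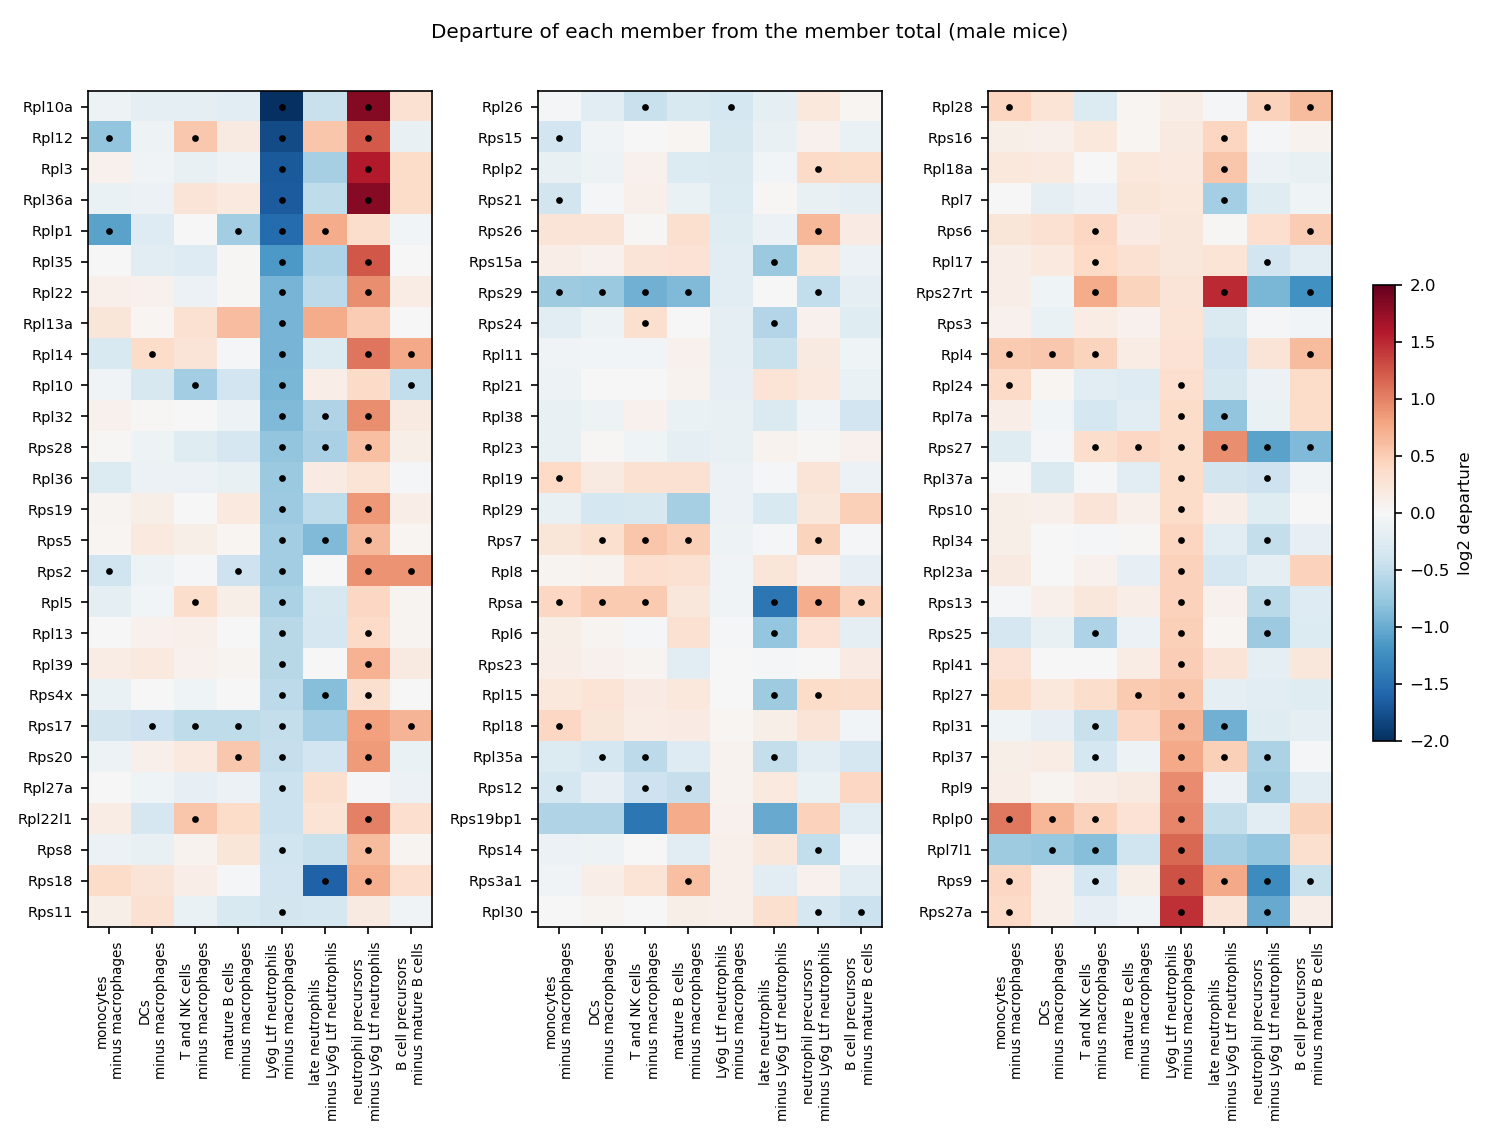
Departure of all 81 members (rows, ordered by their value in Ly6g Ltf neutrophils) from the member total for each of the 8 comparisons in male mice (columns), as a log2 difference on the colour scale, with a dot where the departure was called. The strongest values lie in the neutrophil comparisons, from −2.02 for Rpl10a to 1.45 for Rps27a in Ly6g Ltf neutrophils against macrophages.

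The messages of several small subunit genes shifted through the neutrophil stages. Rps9, which lies in the body of the small subunit, took 1.88%, 1.84% and 1.75% of member UMIs in neutrophil precursors of the 3 male mice, 4.80%, 3.58% and 4.58% in Ly6g Ltf neutrophils, and 7.80%, 6.53% and 7.57% in late neutrophils. The 3 stages did not overlap, and macrophages held 1.80% ± 0.0331. Rps27a, which is made as a fusion with ubiquitin and releases it, took 2.68% ± 0.253, 5.35% ± 0.502 and 6.39% ± 0.663 in the same order, against 1.96% ± 0.0329 in macrophages. Against macrophages, Rps9 departed by 1.27 (SE 0.136, adjusted p = 1.98e-10) and Rps27a by 1.45 (SE 0.138, adjusted p = 1.2e-11) in Ly6g Ltf neutrophils of the male mice by edgeR. In the female mice the same departures were 1.36 and 1.51. On the TMM scale Rps9 was still lower than in macrophages (−0.40), and Rps27a had −0.21. Both values were small beside the members' median of −1.77 on that scale.

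Rps27, a zinc-binding protein of the small subunit, took 1.12%, 1.05% and 1.22% in precursors, 2.74%, 2.19% and 2.25% in Ly6g Ltf neutrophils and 4.87%, 4.33% and 4.44% in late neutrophils. The stages again did not overlap. Its departure was −1.07 (adjusted p = 4.1e-08 by edgeR) in precursors and 0.93 (adjusted p = 4.46e-06 by edgeR) in late neutrophils, both against Ly6g Ltf neutrophils. Against macrophages, Ly6g Ltf neutrophils departed by 0.36 in the male mice (adjusted p = 0.0156 by edgeR) but by 0.06 in the female mice (adjusted p = 0.712 by edgeR), and the sign turned when member genes were kept in the clustering (−0.0552) or all 6 mice were clustered together (−0.0745). The call was kept in 8 of 14 alternatives. Rpsa, the laminin receptor that also serves as a small subunit protein, moved the other way through the stages, from 2.33% ± 0.0659 to 1.40% ± 0.159 and 0.553% ± 0.229. Rps18, a protein of the small subunit head, went from 0.604% ± 0.0364 to 0.359% ± 0.0340. In late neutrophils Rps18 had only 0, 4 and 9 UMIs in the 3 mice, and the count of 0 allows up to 3 UMIs, or 0.133% of the 2257 member UMIs of that sum, for counting error only.

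Members of both subunits departed lower in Ly6g Ltf neutrophils against macrophages, 16 of 43 large and 9 of 31 small subunit genes in the male mice and 13 of 43 and 8 of 31 in the female mice. Both subunits also held members that departed higher, 10 of 43 large and 6 of 31 small in the male mice and 7 of 43 and 4 of 31 in the female mice. Rpl37 of the large subunit took means of 3.36% in Ly6g Ltf and 4.70% in late neutrophils of the male mice, its highest types. Rpl10a, in the L1 stalk, took 0.778%, 0.863% and 0.826% of member UMIs in precursors and 0.218%, 0.264% and 0.223% in Ly6g Ltf neutrophils, with no overlap. Its departure was −2.02 against macrophages (SE 0.195, −1.66 in the female mice) and 1.83 for precursors against Ly6g Ltf neutrophils (SE 0.203). Rpl3, near the peptidyl transferase centre, took 0.678%, 0.634% and 0.736% in precursors and 0.218%, 0.284% and 0.213% in Ly6g Ltf neutrophils. Rpl36a took 0.595% ± 0.0324 and 0.181% ± 0.0757. Both departed lower from macrophages, by −1.68 and −1.67 in the male mice and −0.99 and −1.12 in the female mice, and Rpl36a by −0.92 where all 6 mice were clustered together. Rpl12, at the base of the stalk, departed by −1.78 in the male and −2.18 in the female mice. In late neutrophils the held-out sums of the 3 mice held 1, 4 and 11 UMIs of Rpl3 and 1, 4 and 8 of Rpl36a, so no direction is read there. Rpl41 departed higher in both sexes (0.49 and 0.56), and Rpl39 (−0.55 and −0.51) and Rps4x (−0.52 and −0.68) lower.

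**Figure D3:**
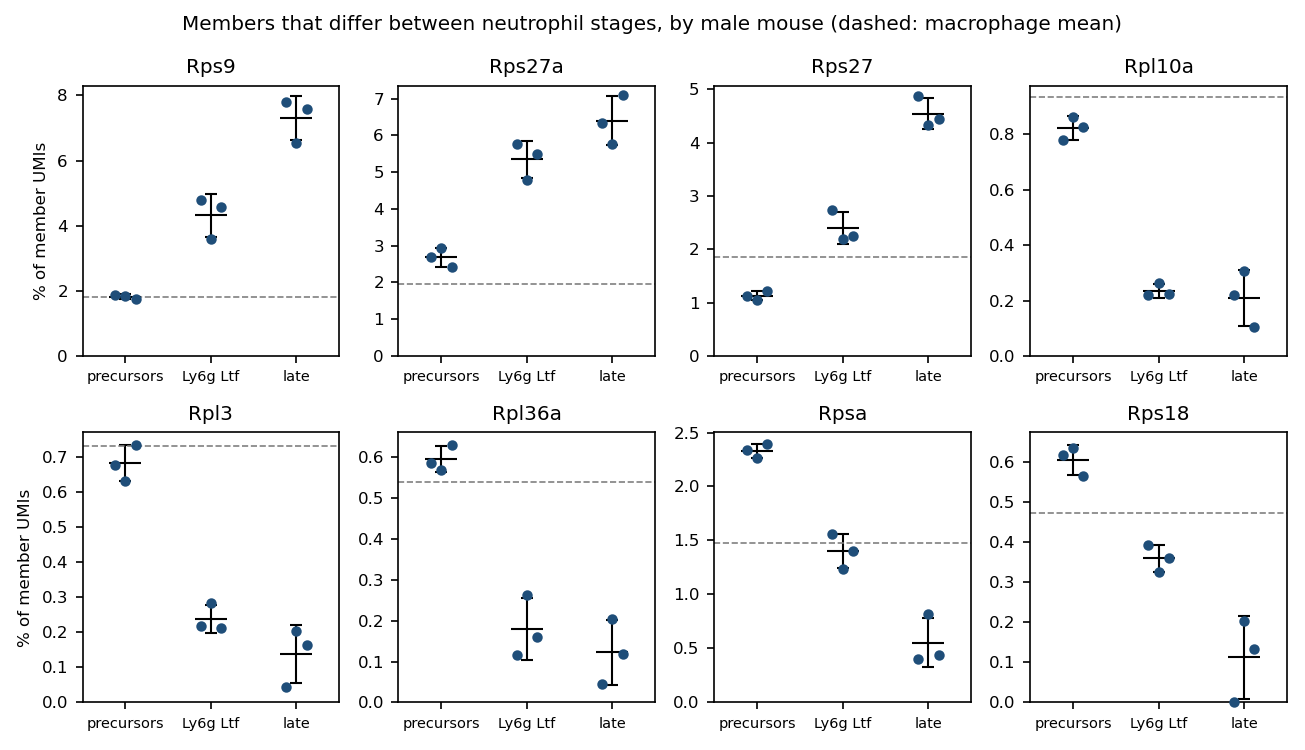
Percent of member UMIs held by selected members (vertical axis, from 0 and scaled apart in each panel) in the 3 neutrophil stages, 1 point per male mouse, with mean and SD as bars and the macrophage mean as a dashed line. Rps9 rises from 1.82% in precursors to 7.30% in late neutrophils, while Rpl3 goes from 0.683% in precursors to a mean of 0.239% in Ly6g Ltf neutrophils.

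The messages of the P stalk genes did not keep a fixed ratio, and the proteins were not measured. Rplp0, which anchors the stalk, was lowest in macrophages at 1.19%, 1.03% and 1.20% of member UMIs and took 2.34%, 2.35% and 2.39% in monocytes. Its departure against macrophages was 1.05 in monocytes (SE 0.146, adjusted p = 3.54e-07 by edgeR), 0.67 in DCs (0.72 in the female mice), 0.46 in T and NK cells (0.41) and 0.98 in Ly6g Ltf neutrophils (0.67). Rplp1, which binds the anchor, took 2.28%, 2.27% and 2.29% in macrophages and 1.10%, 1.04% and 1.12% in monocytes. It departed by −1.06 in monocytes (SE 0.144, adjusted p = 2.08e-07 by edgeR), −0.70 in mature B cells (−0.87 in the female mice) and −1.54 in Ly6g Ltf neutrophils (−1.66). T and NK cells kept a Rplp1 part like that of macrophages, at 2.30% ± 0.174. Rplp2, the partner of Rplp1 in the dimer, ranged from a mean of 0.836% in late neutrophils to 1.17% in neutrophil precursors. It departed by 0.39 in precursors against Ly6g Ltf neutrophils, a call kept in 5 of 15 alternatives. In female mature B cells Rplp1 and Rplp2 were both called lower than in macrophages and Rplp0 higher (0.33). Between monocytes and macrophages, Rplp0 and Rplp1 therefore changed in opposite directions while neither group overlapped the other for either gene.

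Rps29 was the member with the most UMIs, 4.69% of member UMIs over the male cells. It is a small zinc-binding protein of the small subunit head. It took 5.48%, 5.83% and 5.39% in male macrophages, 3.04%, 3.48% and 3.45% in DCs and 3.49%, 3.38% and 3.31% in monocytes. T and NK cells had 2.97%, 2.82% and 2.78% and mature B cells 2.86%, 3.33% and 2.85%. No value of these 4 types reached the macrophage range. Its departures from macrophages were −0.74 for DCs, −0.71 for monocytes, −0.96 for T and NK cells and −0.89 for mature B cells, and in the female mice −0.73, −0.83 and −1.01 for DCs, T and NK cells and mature B cells. On the TMM scale the difference in DCs was −0.18 (adjusted p = 0.501 by edgeR), where the members' median was 0.57. Rps7, also of the small subunit, went the other way, with 1.14% ± 0.0417 in macrophages, 1.67% ± 0.116 in T and NK cells and 1.59% ± 0.0381 in mature B cells. Rps29 lower and Rps7 higher were called in both sexes in DCs, T and NK cells and mature B cells, 3 comparisons that share the macrophage sums.

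Further departures from macrophages were called in lymphoid cells, DCs and monocytes. In T and NK cells Rpl10, which finishes the large subunit's assembly near the catalytic centre, took 0.804%, 0.994% and 0.889% against 1.52%, 1.49% and 1.36% in macrophages. Its departure was −0.70 in the male (SE 0.144) and −1.04 in the female mice. Rpsa departed higher in T and NK cells (0.52 and 0.54), DCs (0.53 and 0.48) and monocytes (0.42 in the male mice). Rpl4, a protein lining the peptide exit tunnel, departed by 0.54 in DCs (0.39 in the female mice, adjusted p = 0.0509 by edgeR) and 0.52 in monocytes. In monocytes the call of Rpsa was kept in 9 of 14 alternatives and that of Rpl4 in 10 of 14, and in DCs that of Rpl4 in 13 of 15. In mature B cells Rps3a1 took 2.24%, 2.73% and 2.52% against 1.66%, 1.66% and 1.61% in macrophages, and Rps20 took 2.41%, 2.12% and 2.56% against 1.66%, 1.58% and 1.69%. Their departures were 0.60 and 0.53 in the male and 0.61 and 0.68 in the female mice, and in the male mice Rps3a1 kept its call in 10 and Rps20 in 13 of 14 alternatives. In B cell precursors Rps2 took 1.18% and 1.10% in the 2 mice and Rpl14 1.05% and 0.943%, against means of 0.613% and 0.595% in mature B cells. Rps2 departed by 0.89 (SE 0.167, adjusted p = 1.79e-04 by edgeR) and Rpl14 by 0.75 (SE 0.160, adjusted p = 8.23e-04 by edgeR), and each kept its call in 12 of 13 alternatives.

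The female mice, none of whose cells entered the male fit, gave departures of the same sign for most members called in the male mice. Of the members tested in both sexes, 8 were called in male DCs, and 8 had the same sign and 7 were also called in female DCs. For T and NK cells the counts were 22, 22 and 18, for mature B cells 10, 10 and 7, and for Ly6g Ltf neutrophils 43, 41 and 30. The members called in both made up 87.5%, 81.8%, 70.0% and 69.8% of the male calls and 63.6%, 62.1%, 30.4% and 88.2% of the female calls, in the order DCs, T and NK cells, mature B cells and Ly6g Ltf neutrophils. No member was called with opposite signs. Across the 79 members Pearson's r between male and female departures was 0.90, 0.92, 0.87 and 0.90 in that order. These are descriptions over genes, which are not independent replicates, and all cells shared 1 lane. The same counts and r were not taken over all genes, so this agreement cannot be called particular to the members. A test of the difference between the sexes called 0 of 80 members in any of the 4 contrasts (edgeR), and at an unadjusted p under 0.05 it held 5 members in Ly6g Ltf neutrophils and 0 in each of the other 3. Of all 3598 genes the same test of departures called 22 in DCs, 26 in mature B cells and 0 in T and NK cells and in Ly6g Ltf neutrophils. With so few calls over all genes, the lack of called members does not show that the sexes agree.

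**Figure D4:**
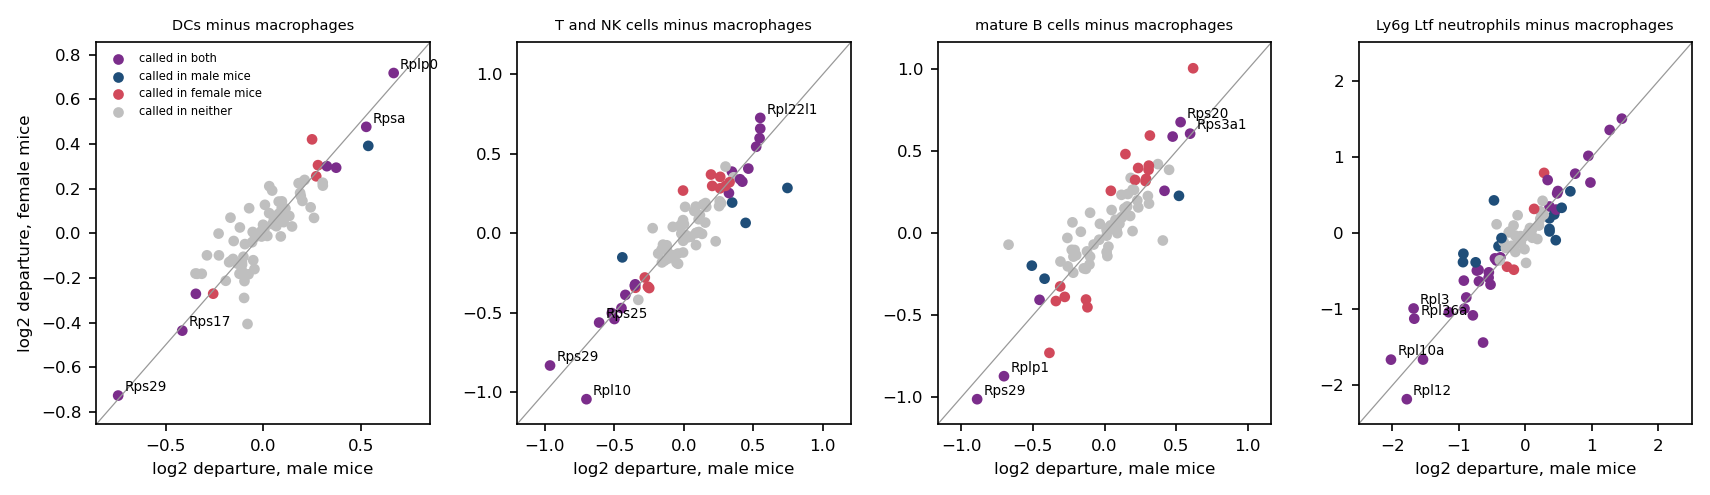
Departure of each member in female mice (vertical axis) against male mice (horizontal axis), log2 differences, 1 panel per comparison with macrophages, coloured by the sex in which the departure was called. Points fall along the diagonal, with r between 0.87 and 0.92 across 79 members.

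Paralogs that the name rule kept or left out were also looked at one by one. Rps27l, a paralog of Rps27 known as a target of p53, is not a member because its name ends in l. It held 490, 524 and 531 CPM (its UMIs scaled to a total of 1000000) in male DCs, 253, 187 and 262 in macrophages, 140, 151 and 132 in T and NK cells and 45.5, 60.4 and 123 in mature B cells. Between DCs and mature B cells Rps27 ran the other way, with 3946, 4137 and 4367 CPM in DCs and 6272, 5288 and 5288 in mature B cells. B cell precursors held 459.5 and 456.7 of Rps27l and 3729 and 3366 of Rps27. For each 100 UMIs of Rps27 there were thus 12.9 of Rps27l in B cell precursors and 1.40 in mature B cells. The TMM log2 difference of Rps27l between B cell precursors and mature B cells was 2.32 (SE 0.349, adjusted p = 4.20e-06 by edgeR), and that of Rps27 was −0.74 (adjusted p = 0.00465 by edgeR). Against macrophages Rps27l differed by 1.07 in DCs, −1.20 in T and NK cells and −1.97 in mature B cells, and by 0.77, −0.82 and −1.05 in the female mice. Its level was low in mature B cells, where the smallest sum held 2 UMIs. In male neutrophils the left-out Rps27l and Rpl36al moved as most members did. Both had −2.11 in Ly6g Ltf neutrophils against macrophages (members' median −1.77), with 3 and 7 UMIs in the smallest sums of both sexes. In precursors against Ly6g Ltf neutrophils they had 2.14 and 2.45 (members' median 1.26). Against macrophages Rpl36al had 0.85 in DCs, 0.77 in monocytes, 0.44 in mature B cells and −0.01 in T and NK cells of the male mice. The value in mature B cells was not called and ran from −0.26 to 0.99 over the alternatives. The female mice had 0.76 in DCs, 0.52 in mature B cells and 0.67 in T and NK cells (adjusted p = 0.00325 by edgeR for the last). For T and NK cells the value was thus called in the female mice only. A test of the difference between the sexes on the TMM scale called 0 of 3598 genes in that comparison (edgeR). No difference between the sexes is therefore read from these values.

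**Figure D5:**
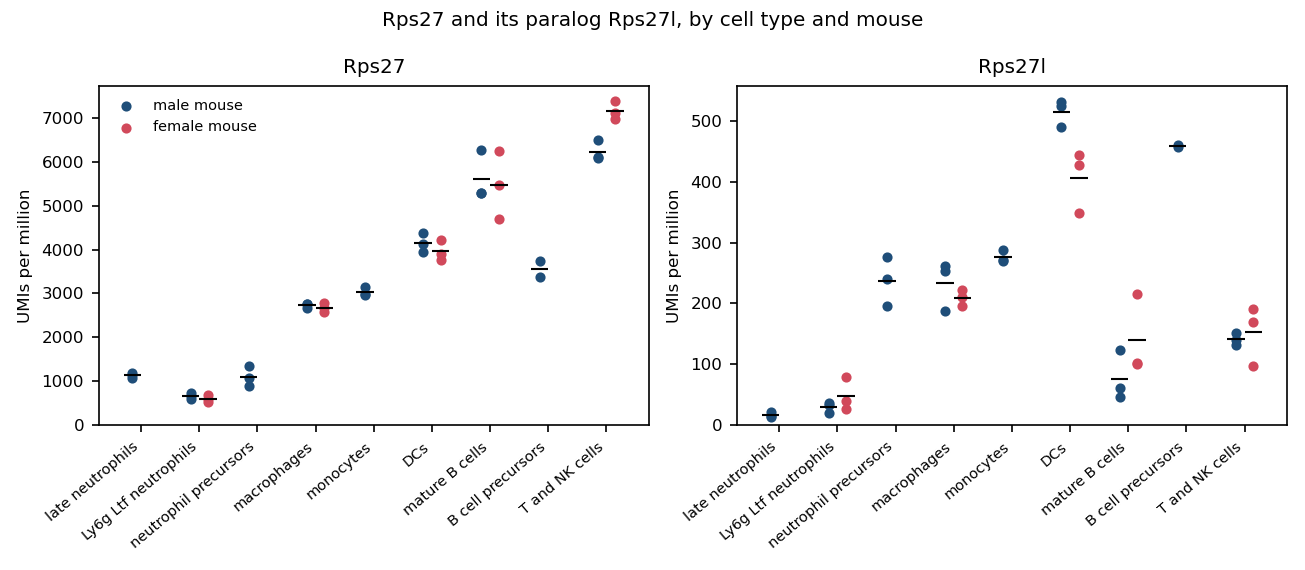
CPM (UMIs scaled to a total of 1000000) of Rps27 and of its paralog Rps27l (vertical axes from 0, scaled apart) for each mouse and cell type, with bars at the means. Mature B cells and T and NK cells have the most Rps27 and, neutrophils apart, the least Rps27l, and DCs and B cell precursors have the most Rps27l.

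Rpl22l1, the paralog of the T cell development gene Rpl22, took 0.363%, 0.347% and 0.340% of member UMIs in male T and NK cells against 0.233%, 0.232% and 0.249% in macrophages. Its departure was 0.55 in the male and 0.73 in the female mice. In neutrophil precursors it departed by 1.01 from Ly6g Ltf neutrophils, and Rpl22 by 0.93. The call of Rpl22l1 was kept in 13 of 15 alternatives, and its value fell to 0.12 (adjusted p = 0.624 by edgeR) with all 6 mice clustered together. Rps27rt is a near-identical copy of Rps27, and reads of these 2 genes could not be fully told apart. Its departures of 0.75 in T and NK cells, 1.5 in late against Ly6g Ltf neutrophils and −1.21 in B cell precursors are uncertain and kept their calls in 11 of 14, 11 of 14 and 4 of 13 alternatives, and in the female T and NK cells the value was 0.29 (adjusted p = 0.427 by edgeR). Rpl7l1 and Rps19bp1, with Rps27rt, were the 3 members with the fewest UMIs.

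Genes that work with the ribosome were counted from lists, on the TMM scale. Of 14 translation elongation and other TOP genes, 12 were lower in Ly6g Ltf neutrophils than in macrophages (median −1.58, beside 35.0% of all genes lower), with Eef1a1, which delivers aminoacyl tRNA, at −2.38 and Npm1, a nucleolar chaperone of ribosome assembly, at −2.65. Pabpc1, the poly(A) binding protein, had −0.24 (adjusted p = 0.303 by edgeR). In neutrophil precursors 11 of the 14 were higher than in Ly6g Ltf neutrophils (23.2% of all genes). In DCs 11 were higher than in macrophages (median 0.59, 14.0% of all genes higher), in T and NK cells 6 (16.6%), and in monocytes 4 were higher and 1 lower (14.5% and 15.4%). Of 18 ribosome biogenesis genes tested of 30 listed, 15 were lower in Ly6g Ltf neutrophils (median −2.03), and 13 were higher in precursors (median 1.85). Fbl, the methyltransferase of ribosomal RNA, differed by −3.76 and 3.20 in these comparisons. In monocytes 4 of 18 biogenesis genes were lower than in macrophages (15.4% of all genes lower). In DCs 4 of the 18 were higher (14.0% of all genes higher). These small counts lie little above the shares of all genes, and the difference between monocytes and DCs was not tested. Of 29 translation initiation genes, 21 were lower and 4 higher in Ly6g Ltf neutrophils (median −0.94). The latter included Eif1 (0.82), which guards start codon choice, and Eif4ebp1 (1.28), an inhibitor of the cap-binding protein Eif4e. Eif4ebp1 was lower in T and NK cells (−3.03). Among 54 mitochondrial ribosomal protein genes tested, 27 were lower and 4 higher in Ly6g Ltf neutrophils (35.0% and 27.6% of all genes), 32 were higher and 1 lower in precursors (23.2% and 26.0%), and 10 were higher in B cell precursors than in mature B cells (8.10%). Of 5 regulators of ribosomal protein synthesis tested, 3 were higher and 1 lower in Ly6g Ltf neutrophils, and the lower was Myc. All genes had a median of −0.27 in the comparison of Ly6g Ltf neutrophils with macrophages.

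The TOP letters were present in members that departed in either direction, and 34.4% of all members with sequence held them. Whether the letters go with a direction was not tested. Of the members with sequence, they were in 5 of 16 that departed higher and 4 of 17 that departed lower in Ly6g Ltf neutrophils against macrophages. In late against Ly6g Ltf neutrophils they were in 2 of 5 higher and 6 of 11 lower, and in precursors against Ly6g Ltf neutrophils in 8 of 20 higher and 3 of 8 lower. Rps9, Rps27 and Rps18 all carry a run, as the sequences above show. Rps9 and Rps27 departed higher in late neutrophils, and Rps18 departed lower there on only 0, 4 and 9 UMIs in the 3 mice.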

How the data were processed

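Single-cell 3′ RNA-seq was read as raw UMI counts per gene and cell, which the authors deposited as Cell Ranger matrices (file header 3.1.0, mm10) beside hashtag counts per cell. The authors analysed them with Seurat. Barcodes with 200–5000 genes and at most 5% mitochondrial UMIs were demultiplexed by hashtag (Seurat 5.3.0, HTODemux), which gave 3741 singlets, 269 doublets and 101 negatives. Scrublet (scanpy 1.11.5) was run as an alternative. Each UMI was put at random (probability 0.5) into a clustering part, in which members were left out (2000 features, 15 components, resolution 0.5), or a tested part. Clusters were named by at least 3 raised markers. The details of this naming rule were set after the clusters were seen. Macrophage clusters were named by C1qa, C1qb and C1qc at 25% or more of the highest cluster.

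Tested counts were summed per mouse and type with at least 10 cells and fitted with edgeR 4.0.16 (quasi-likelihood, TMM, filterByExpr, no mouse term, adjusted p under 0.05). Departures used the member total as library size. Shares were tested by exact permutation of signs over mice. In simulated data, 18 (TMM) and 19 (departure) of 20 members changed 2-fold were recovered in DCs against macrophages and 15 by either fit in mature B cells against macrophages. Unchanged genes were 4.39% and 9.48% of the calls in DCs and 6.25% and 6.12% in mature B cells. The simulation changed 200 of 4533 genes, and over all of these 54.5% and 52.5% were recovered in DCs and 22.5% and 23% in mature B cells. The departure fits of the real data called more genes, and many departures reported here are smaller than 2-fold. Recovery and false calls under those conditions were not simulated. Sums of the same mouse pair by animal. Their deviations correlated at −0.0459 to 0.120 in the male (100 pairs) and −0.0446 to 0.0809 in the female mice (30 pairs). No replicates agreed within sampling noise (chi-square over degrees of freedom 1.34–5.90). All cells shared 1 lane, and the floor for a count of 0 covers counting error only.

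The members and gene lists were chosen with earlier results of these data known. The mitochondrial ribosomal list was added after values were seen. Per comparison, named genes were the 3 largest departures in each direction among called members that moved alike in every mouse, the 3 members of highest and lowest level, and a set of paralogs and well-known members. Others named here were called in both sexes or were chosen after their values were seen. Normalization, filter, tool (DESeq2 1.42.0), clustering, doublets, split and left-out mice were varied. Promoters came from RefSeq (GRCm38.p6).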

Additional observations from a re-analysis of the deposited data

Results flagged for a closer look

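Of 167 groups of 6 mice (a member's percent of member UMIs in a cell type), 10 held a mouse that stood apart from the other 5 by Dixon's 95% limit, and chance alone gives about 1 in 20. In Ly6g Ltf neutrophils, male mouse 2 had 3.58% for Rps9 against 4.56–4.84% in the others, and female mouse 2 had 0.556% for Rpl3 against 0.213–0.284%. In macrophages, female mouse 3 had 0.854% for Rpl10a (others 0.919–0.955%) and 1.80% for Rps27a (others 1.93–1.99%), and female mouse 1 had 0.615% for Rpl12 (others 0.561–0.575%). In DCs, male mouse 2 had 1.81% for Rps9 (others 1.98–2.03%) and female mouse 3 had 0.357% for Rpl31 (others 0.265–0.287%). In T and NK cells, female mouse 3 had 0.409% for Rps18 (others 0.494–0.530%) and male mouse 3 had 2.15% for Rps27 (others 2.45–2.61%). In mature B cells, male mouse 2 had 0.619% for Rpl10a against 0.814–0.913%.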

How the results depend on the processing

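Of 471 values recomputed for comparisons, 364 were counted as the same, 95 moved and 12 reversed. Counts of members were the same if they stayed within 1.5 times of the count reported. For calls, a change of sign of the members' median was counted as reversed. For counts of departures, direction was not checked. Share differences were the same if they kept their direction and their side of the adjusted p threshold, whatever their size. A further 1262 single-gene values were recomputed, namely departures of named members and TMM differences of Rps27l and Rpl36al. Of these, 1093 were counted as the same, 161 lost and 4 gained significance and 4 reversed, and the causes were not tested. A departure was the same if it kept its direction and its side of the threshold. For Rps27l and Rpl36al, a change of sign was counted as reversed only where the reported difference had been called. The share difference of B cell precursors and mature B cells reversed at resolution 0.8 (−0.104) and with all 6 mice clustered together (−0.455), and that of late and Ly6g Ltf neutrophils reversed as a median over cells (0.165). The departure of Rps27 in Ly6g Ltf neutrophils reversed with member genes kept in the clustering (−0.0552) and with joint clustering (−0.0745), and that of Rpl10 in B cell precursors with joint clustering (0.0713) and another random split (0.0565).

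Counts of members called moved as follows, in the order used above. Where the members' median changed sign, a count of calls is said to reverse, and counts of departures were not checked for this. With DESeq2, calls were 21 in monocytes, 63 in T and NK cells, 29 in mature B cells and 29 in B cell precursors, and departures 30 in monocytes, 24 in DCs, 24 in mature B cells and 19 in female DCs. Without a filter on low counts, calls were 4, 18 and 7 in monocytes, DCs and T and NK cells, 2 in mature B cells (reversed), 34 in late neutrophils and 5 in B cell precursors. Departures were then 4, 4, 10, 4, 9 and 4 in those types. In the female mice the unfiltered calls were 36 in DCs, 37 in T and NK cells and 13 in mature B cells (reversed), and the departures 4, 16 and 14. On total UMIs, calls were 49 in monocytes, 75 in T and NK cells, 65 in mature B cells, 22 in late neutrophils and 19 in B cell precursors. Calls in B cell precursors reversed at resolution 0.3 (9) and 0.8 (8), with all UMIs used for both clustering and test (5), without Scrublet doublets (5), with joint clustering (7) and with another split (4). Calls in mature B cells reversed without Scrublet doublets (13). Departures in mature B cells were 17 at resolution 0.3, 16 with all UMIs, 5 with member genes kept and 19 without Scrublet doublets, when those in B cell precursors were 6. Departures in late neutrophils were 35 with member genes kept and 38 with joint clustering. Calls in monocytes were 8 with all UMIs and 8 with joint clustering. With joint clustering the female mice had 15 calls in mature B cells and 5, 14, 7 and 21 departures in DCs, T and NK cells, mature B cells and Ly6g Ltf neutrophils. With another split they had 35 and 34 calls in DCs and mature B cells and 5 and 15 departures in DCs and T and NK cells. Female DC departures were 7 at resolution 0.3, 5 at 0.8, 7 with all UMIs and 5 with member genes kept, and those of female mature B cells 14 at 0.8. The joint clustering, other split, total UMIs and all female alternatives were chosen after seeing the data.

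Leaving out 1 mouse in turn gave calls of 2–5 in monocytes, 21–42 in DCs, 18–30 in T and NK cells, 1–6 in mature B cells, 32–39 in late neutrophils and 3–5 in B cell precursors, and in the female mice 29–47 in DCs and 28–40 in mature B cells. Departures were then 4–7 in monocytes, 4 in DCs, 6–16 in T and NK cells, 2–5 in mature B cells, 28–39 in Ly6g Ltf neutrophils, 8–11 in late neutrophils and 2–5 in B cell precursors, and in the female mice 4–5 in DCs, 15–18 in T and NK cells and 14–17 in mature B cells. Such fits have fewer samples, and a type left with 1 sum is assumed to vary like the others. With the mouse as a replicate block, counts moved by no more than 1.5 times (65 calls in DCs, 79 in Ly6g Ltf neutrophils, 8 departures in B cell precursors), and the block changed no other call by more. Depth limits single members in late neutrophils (1961–6761 member UMIs per sum) and B cells.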
